A study of Mus musculus with 14 samples.

Results

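The enzymes that write methyl groups onto cytosine in DNA and the enzymes that start their removal were followed in leukemic progenitor cells of mice during and after inhibition of mutant IDH1. They were chosen by name as 9 genes of the 52636 Ensembl identifiers in the table of counts: the writers Dnmt1, Dnmt3a and Dnmt3b, the erasers Tet1, Tet2 and Tet3, the repair glycosylases Tdg and Mbd4, and the reader Mbd2. The 9 genes were found in the table and passed the filter on low counts. In GRCm38 coordinates, Dnmt1 lies on chromosome 9 (20907209 to 20959888), Dnmt3b on chromosome 2 (153649450 to 153687730), Tet1 on chromosome 10 (62804570 to 62908996), Tet3 on chromosome 6 (83362373 to 83459084), Tdg on chromosome 10 (82629828 to 82650799), Mbd4 on chromosome 6 (115840697 to 115853371) and Mbd2 on chromosome 18.

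The cells came from mice transplanted with I1DN leukemic cells, a mouse leukemia with mutant IDH1, and were sorted per mouse as positive for cKit and negative for CD11b. The 14 libraries fell into 5 groups. Mice of the relapse group (n = 4) had AG120 for 28 days and were then followed until the disease came back. The other groups had 14 days of AG120 (n = 2) or its vehicle (n = 2), or 5 days of AG120 (n = 3) or its vehicle (n = 3). AG120 (AG-120, ivosidenib) inhibits the mutant form of IDH1. The alleles behind the name I1DN, the age and strain of the mice, and whether the leukemia derives from 1 clone could not be read from the labels, and counts per gene do not separate a mutant from a normal allele.

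As background, DNMT3A and DNMT3B place methyl groups on unmethylated CpG sites, and DNMT1 copies the pattern onto the new strand after replication. TET enzymes oxidise 5-methylcytosine in a reaction that needs 2-oxoglutarate, and the glycosylase TDG cuts out the later oxidation products so that base excision repair can restore an unmodified cytosine. MBD4 removes the thymine that deamination of 5-methylcytosine leaves behind, and MBD2 binds methylated CpG sites and recruits a repressor complex. Mutant IDH1 makes 2-hydroxyglutarate, which competes with 2-oxoglutarate at TET enzymes, and DNMT3A and TET2 are often mutated in human myeloid leukemia.

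Dnmt3a, Dnmt3b and Tet2 were the members whose RNA fell with AG120 at both times, and the 250 bases before a transcription start of each are shown because the CpG sites in them, in capitals, are the substrate of the enzymes themselves. The sequences are from RefSeq (GRCm38.p6), each on the strand of its gene: Dnmt3a at chr12:3806910-3807159 on the plus strand, Dnmt3b at chr2:153649199-153649448 on the plus strand and Tet2 at chr3:133544391-133544640 on the minus strand.
Dnmt3a: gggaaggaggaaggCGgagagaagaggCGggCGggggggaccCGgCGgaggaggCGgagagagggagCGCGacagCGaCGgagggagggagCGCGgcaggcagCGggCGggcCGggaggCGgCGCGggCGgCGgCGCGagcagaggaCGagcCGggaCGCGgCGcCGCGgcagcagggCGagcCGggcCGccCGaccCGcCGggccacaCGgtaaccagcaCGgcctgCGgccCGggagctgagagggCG
Dnmt3b: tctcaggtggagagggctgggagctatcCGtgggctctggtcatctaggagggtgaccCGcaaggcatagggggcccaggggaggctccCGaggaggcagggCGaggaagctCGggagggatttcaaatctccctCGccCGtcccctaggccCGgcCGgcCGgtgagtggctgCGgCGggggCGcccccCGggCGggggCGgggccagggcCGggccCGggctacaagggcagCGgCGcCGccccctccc
Tet2: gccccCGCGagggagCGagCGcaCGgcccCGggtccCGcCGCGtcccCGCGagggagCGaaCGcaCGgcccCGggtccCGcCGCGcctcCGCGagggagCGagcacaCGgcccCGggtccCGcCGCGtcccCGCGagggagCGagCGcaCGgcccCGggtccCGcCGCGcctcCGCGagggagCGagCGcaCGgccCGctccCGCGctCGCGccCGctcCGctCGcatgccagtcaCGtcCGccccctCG
The window shown for Dnmt3a held 40 CpG sites, more than 98.7% of the 32851 windows of this length in the table, where the median was 6. Its other windows held 38 and 15, the 15 before a start further into the gene, more than 72.7% of windows. The window of Tet2 held 51 and that of Dnmt3b held 21, more than 99.9% and 83.7% of windows. In all, 8 of the 9 genes had a window, 12 windows together, since Dnmt1 and Dnmt3a each had 3. The Tet1 window held 15 CpG sites, Tet3 17, Tdg 19 and Mbd4 22, and the windows of Dnmt1 held 2, 7 and 26. The letters AGATAA, searched on both strands because the GATA1 factor of erythroid cells binds them, were in none of the 12 windows and in 9.99% of all windows. No measurement of methylation or of binding at these windows was used here.

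QuantSeq libraries start from the poly(A) tail, so that counts do not scale with transcript length. Libraries held 4995738 to 8691708 counts, of which ribosomal RNA models took 50.9% to 74.8%, and 1259982 to 3358874 counts were left for other genes. AG120 day 14 replicate 1 had the highest ribosomal share. Levels are in CPM, the count scaled to a common library size with TMM factors, and 1 CPM stood for 3.35 to 9.09 counts. The 4 relapse libraries fell into pairs: log2 CPM correlated at 0.972 between replicates 1 and 4 and at 0.957 between 2 and 3, against 0.92 to 0.935 for the other pairs. Kit, the gene of the marker sorted for, lay lowest in AG120 day 14 (11.6 CPM in both libraries, against 35 to 36.8 CPM with vehicle) and ranged over 18.9 to 52 CPM in relapse. Itgam, which encodes the CD11b sorted against, was detected in every group. Its level was 2.56 to 3.81 CPM in AG120 day 5, against 10.6 to 15.5 CPM with vehicle, and 13.9 to 53.5 CPM in relapse.

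After 5 days of AG120, Dnmt3a, Dnmt3b, Tet2 and Mbd4 fell and Mbd2 rose, while Dnmt1, Tet1, Tet3 and Tdg did not pass the test. After 14 days, Dnmt3a, Dnmt3b and Tet2 fell and Mbd2 rose. In relapse the 9 genes stood close to vehicle on average, and none passed, but Tet1, Tet3 and Dnmt3b were far apart among the 4 relapse libraries. The test was edgeR's quasi-likelihood test over all 14 libraries with Benjamini-Hochberg adjustment over 11994 genes and 0.05 as the threshold. AG120 changed a large part of the transcriptome: 39.4% of all genes tested passed at day 5 and 34.7% at day 14, against which 5 of 9 members at day 5 and 4 of 9 at day 14 (55.6% and 44.4%) are to be read. By direction, 20.1% of genes rose and 19.3% fell at day 5, and 16.8% rose and 17.9% fell at day 14. The AG120 and vehicle libraries did not overlap for 8 of 9 members at each time, as for 59.9% of all genes at day 5 and 70.5% at day 14. Between relapse and vehicle, taken as the mean of day 5 and day 14, 0.183% of genes passed (0.1% higher, 0.0834% lower). No vehicle group was taken at the time of relapse, so that time and relapse cannot be told apart there. Between relapse and AG120, taken as the mean of its 2 times, 54% passed (27.9% higher, 26.1% lower) and so did 5 of the 9 members, 3 higher and 2 lower. The day 14 effect minus the day 5 effect passed for 0.934% of genes and for no member. The median log2 fold change of the members was −0.68 at day 5 and −0.31 at day 14, against 0 and −0.01 over all genes tested. The comparisons share libraries, since vehicle enters both AG120 minus vehicle and relapse minus vehicle, and AG120 enters relapse minus AG120.

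**Figure D1:**
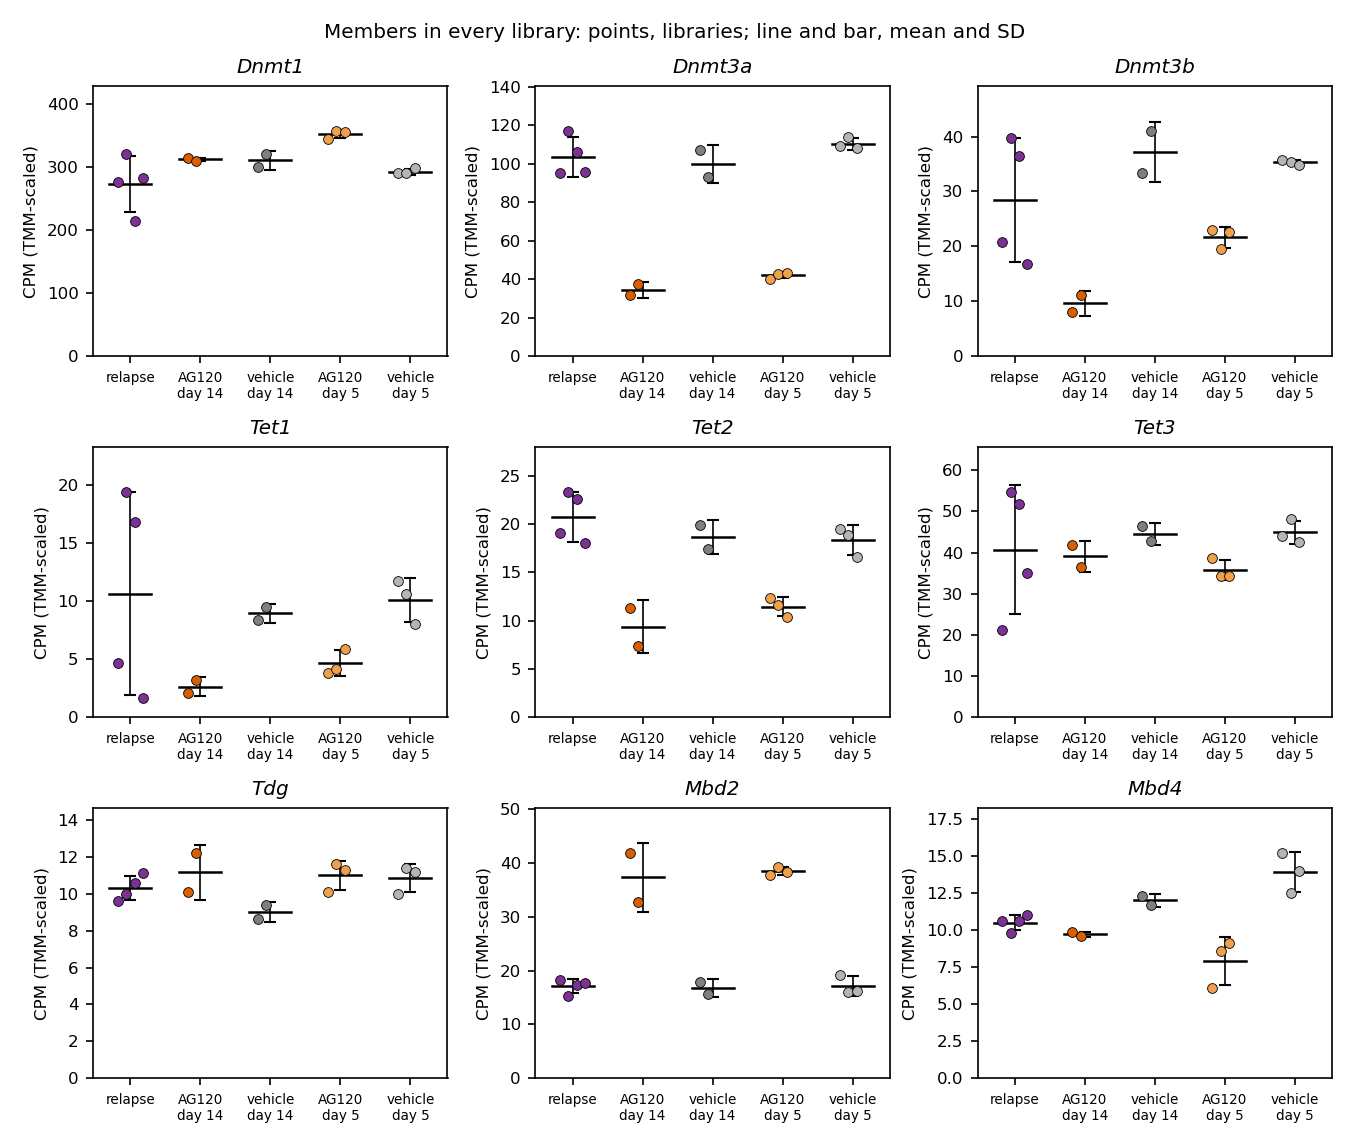
CPM (TMM-scaled, vertical axis) of the 9 genes in each of the 14 libraries (points), with the mean (line) and SD (bar) of each group on the horizontal axis. Dnmt3a in the 5 AG120 libraries sits at 31.6 to 43.1 CPM, below every relapse and vehicle library, and Mbd2 sits above them at 32.8 to 41.8 CPM, while Tet1 spans 1.68 to 19.4 CPM within relapse.

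Dnmt3a, a de novo methyltransferase, fell at both times by a like amount. It stood at 40.2, 42.8 and 43.1 CPM in AG120 day 5 libraries, against 109, 114 and 108 CPM in vehicle day 5 libraries. At day 14 it stood at 31.6 and 37.4 CPM in AG120, against 107 and 93 CPM in vehicle. No AG120 library overlapped with vehicle at either time, and the AG120 libraries held a level 2.63-fold lower at day 5 (log2 fold change −1.39 ± 0.12, SE, adjusted p = 1.55e-07) and 2.88-fold lower at day 14 (−1.53 ± 0.15, adjusted p = 8.44e-07). In relapse Dnmt3a stood at 95.4, 117, 106 and 95.8 CPM, with replicate 2 above every vehicle library and the others within the range of vehicle. Relapse minus vehicle was −0.02 ± 0.09 (95% interval −0.22 to 0.18, adjusted p = 0.962), whereas relapse minus AG120 was 1.44 ± 0.10 (adjusted p = 4.09e-09). The order of group means ran from vehicle day 5 through relapse and vehicle day 14 down to AG120 day 5 and AG120 day 14. Relapse overlapped with each vehicle group, but vehicle day 14 lay below vehicle day 5 without overlap. The AG120 groups did not overlap with relapse, with vehicle or with each other. Dnmt3a lies on chromosome 12 from 3806007 to 3914443 (GRCm38), and the antisense gene Dnmt3aos, which overlaps its exons, held 2 counts in all libraries together, against 8001 for Dnmt3a.

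Dnmt3b, the other de novo methyltransferase, fell less at day 5 and more at day 14. It stood at 22.9, 19.5 and 22.7 CPM in AG120 day 5 libraries, against 35.7, 35.3 and 34.9 CPM in vehicle day 5 libraries. After 14 days its level was 8.06 and 11.2 CPM in AG120, from 27 and 56 counts, against 33.3 and 41 CPM in vehicle. The groups did not overlap at either time. The log2 fold change was −1.92 ± 0.35 at day 14 (adjusted p = 0.000769) and −0.70 ± 0.26 at day 5 (adjusted p = 0.0413). The call at day 5 did not hold when any 1 of the 6 day 5 libraries was left out (adjusted p = 0.0803 to 0.124, log2 fold change −0.74 to −0.63), and it held at adjusted p = 3.53e-06 when the relapse libraries were left out of the fit. The day 14 effect minus the day 5 effect was −1.22 ± 0.44 (adjusted p = 0.243) and did not pass, but it passed once the fit held the 4 AG120 and vehicle groups alone (−1.19, adjusted p = 0.000371) and with no filter on low counts (−1.29, adjusted p = 0.000994).

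In relapse Dnmt3b stood at 20.8, 39.7, 36.5 and 16.8 CPM in replicates 1 to 4. Replicates 2 and 3 lay at the level of vehicle, and replicates 1 and 4 lay below every vehicle library and close to AG120 day 5. Relapse minus vehicle was −0.35 ± 0.21 (adjusted p = 0.542), and relapse minus AG120 was 0.96 ± 0.23 (adjusted p = 0.00275), with libraries that overlapped. With replicates 2 and 3 left out these were −0.94 and 0.38, and with replicates 1 and 4 left out 0.07 and 1.38.

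Dnmt1, the maintenance methyltransferase, was the most abundant of the 3 writers and changed least. It stood at 345, 357 and 356 CPM in AG120 day 5 libraries, against 290, 290 and 298 CPM in vehicle day 5 libraries. The day 5 libraries did not overlap, as held for 59.9% of all genes tested, but the log2 fold change of 0.27 ± 0.12 did not pass (adjusted p = 0.0923). It passed in a fit of the day 5 libraries alone (0.25, adjusted p = 0.00317). At day 14 Dnmt1 stood at 314 and 310 CPM in AG120, against 300 and 321 CPM in vehicle (0.01 ± 0.15, 95% interval −0.31 to 0.33, adjusted p = 0.977). In relapse it stood at 277, 321, 214 and 283 CPM, with replicate 3 the lowest of all 14 libraries. Relapse minus AG120 was −0.28 ± 0.10 (adjusted p = 0.0293) and lost its call without relapse replicate 3 (−0.18, adjusted p = 0.111), without AG120 day 14 replicate 1 (adjusted p = 0.0631) or 2 (0.0626), without AG120 day 5 replicate 2 (0.051) or 3 (0.0529), with no filter on low counts (0.158), in a fit without vehicle (0.124) and without ribosomal RNA models (0.0579).

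The make-up of the writers' summed counts differed with AG120. Dnmt3a took 10.1% ± 0.206 of the summed counts of the 3 writers in AG120 day 5 (SD, n = 3), against 25.2% ± 0.701 in vehicle day 5 (SD, n = 3). At day 14 its share was 9.68% ± 1.05 in AG120, against 22.3% ± 2.70 in vehicle (SD, n = 2 each), and in relapse it was 25.7% ± 2.71 (SD, n = 4). Dnmt1 took 84.4% to 85.1% in AG120 day 5, against 66.0% to 67.6% in vehicle day 5. Shares are of 3′ counts, are given as a description, and carry no test.

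**Figure D2:**
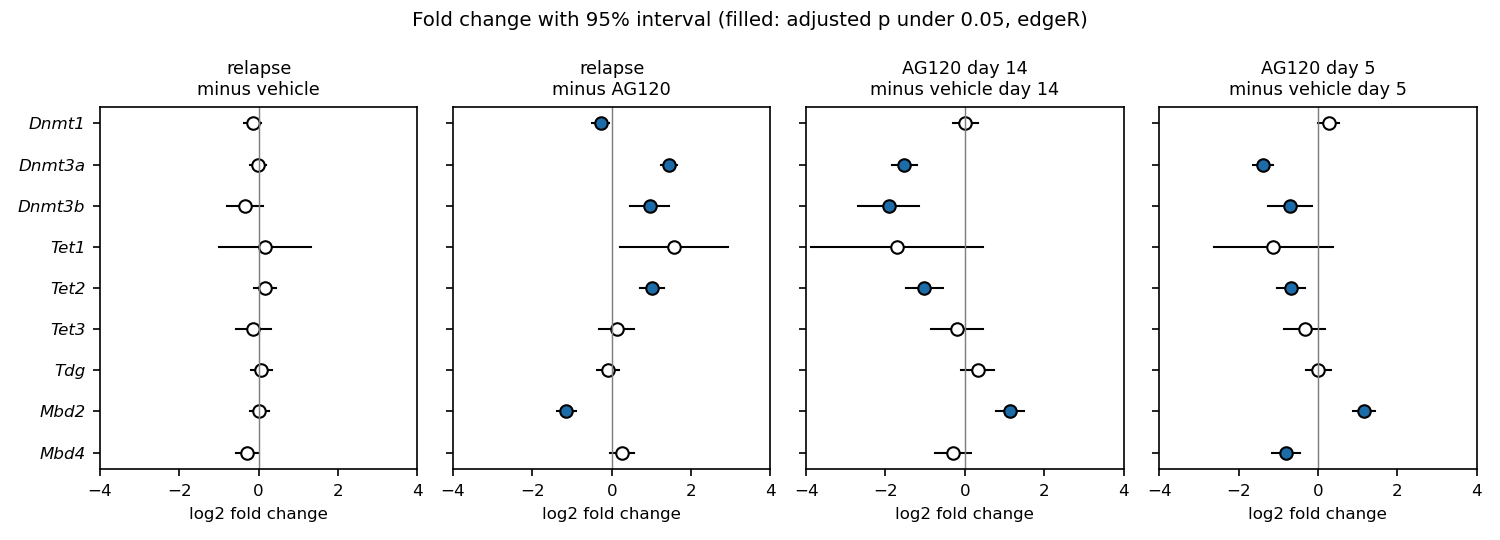
Log2 fold change (horizontal axis) of the 9 genes in 4 comparisons, with 95% intervals from edgeR's quasi-likelihood fit; filled points passed at adjusted p under 0.05. Dnmt3a is at −1.39 and −1.53 with AG120 and at −0.02 in relapse minus vehicle, and the widest intervals are those of Tet1, −3.88 to 0.46 at day 14.

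Tet2, an eraser, fell at both times. It stood at 12.3, 11.6 and 10.4 CPM in AG120 day 5 libraries, against 19.5, 18.9 and 16.6 CPM in vehicle day 5 libraries. At the later time it stood at 11.3 and 7.41 CPM in AG120, from 38 and 37 counts, against 19.9 and 17.4 CPM in vehicle. The groups did not overlap, with a log2 fold change of −0.68 ± 0.17 at day 5 (adjusted p = 0.00386) and −1.02 ± 0.22 at day 14 (adjusted p = 0.00183). Leaving out AG120 day 14 replicate 2 ended the call at day 14 (−0.72, adjusted p = 0.0543). In relapse Tet2 stood at 19.1, 23.3, 22.6 and 18 CPM, and unlike Dnmt3b its 4 libraries all lay above every AG120 library. Relapse minus AG120 was 1.01 ± 0.14 (adjusted p = 1.72e-05) and relapse minus vehicle was 0.16 ± 0.13 (adjusted p = 0.67). Tet2 lies on chromosome 3 from 133463679 to 133545139.

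Tet1, the least abundant of the 3 TET genes in every group mean, was lower in each AG120 library than in each vehicle library of the same day, but did not pass. It stood at 3.81, 4.2 and 5.91 CPM in AG120 day 5, from 25, 25 and 37 counts, against 11.7, 10.6 and 8.03 CPM in vehicle day 5. The day 14 levels were 2.09 and 3.2 CPM in AG120, from 7 and 16 counts, against 8.35 and 9.54 CPM in vehicle. The fold changes were of the size of that of Dnmt3a but with a large error, −1.12 ± 0.68 at day 5 (adjusted p = 0.22) and −1.71 ± 0.98 at day 14 (adjusted p = 0.207). When the relapse libraries were left out of the fit, an alternative chosen after seeing the data, the values were −1.14 (adjusted p = 2.36e-05) and −1.71 (adjusted p = 4.6e-05). In fits of each day alone they passed too, at adjusted p = 1.43e-05 and 0.000256.

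In relapse Tet1 stood at 4.72, 19.4, 16.8 and 1.68 CPM in replicates 1 to 4, from 25, 109, 122 and 14 counts. Replicates 2 and 3 lay above every vehicle library, and replicates 1 and 4 lay below every vehicle library. The mean was 10.7 ± 8.76 CPM (SD, n = 4). Relapse minus vehicle was 0.15 ± 0.53 (95% interval −1.01 to 1.32, adjusted p = 0.944). It was 0.93 with replicates 1 and 4 left out and −1.66 with replicates 2 and 3 left out, values that describe the libraries kept, since the pairs were seen in the same data. Relapse minus AG120 was 1.56 ± 0.62 (adjusted p = 0.0518) for Tet1, which passed by DESeq2 (1.62, adjusted p = 0.00323), with median-of-ratios size factors (1.59, adjusted p = 0.0489), without ribosomal RNA models (1.61, adjusted p = 0.0465) and without relapse replicate 4 (1.95, adjusted p = 0.000634) or 1 (1.79, adjusted p = 0.0369).

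Tet3 was the most abundant TET gene by 3′ counts and moved little with AG120. It stood at 38.6, 34.4 and 34.2 CPM in AG120 day 5 libraries, against 44.1, 48.1 and 42.5 CPM in vehicle day 5 libraries. After 14 days it stood at 41.8 and 36.4 CPM in AG120, against 46.4 and 42.7 CPM in vehicle. Although each AG120 library lay below each vehicle library of its day, the log2 fold changes of −0.33 ± 0.24 at day 5 (adjusted p = 0.305) and −0.19 ± 0.31 at day 14 (adjusted p = 0.66) did not pass. The day 5 value passed with the relapse libraries left out of the fit (−0.35, adjusted p = 0.0056). In relapse Tet3 stood at 21.2, 54.7, 51.9 and 35.1 CPM, so that replicates 2 and 3 lay above every other library and replicate 1 below every other library. Relapse minus vehicle was −0.13 ± 0.20 (adjusted p = 0.843), 0.25 with replicates 1 and 4 left out and −0.61 with replicates 2 and 3 left out. Tet3 took 76.6% ± 1.25 of the summed counts of the 3 TET genes in AG120 day 14, against 61.7% ± 0.599 in vehicle day 14 (SD, n = 2 each).

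**Figure D3:**
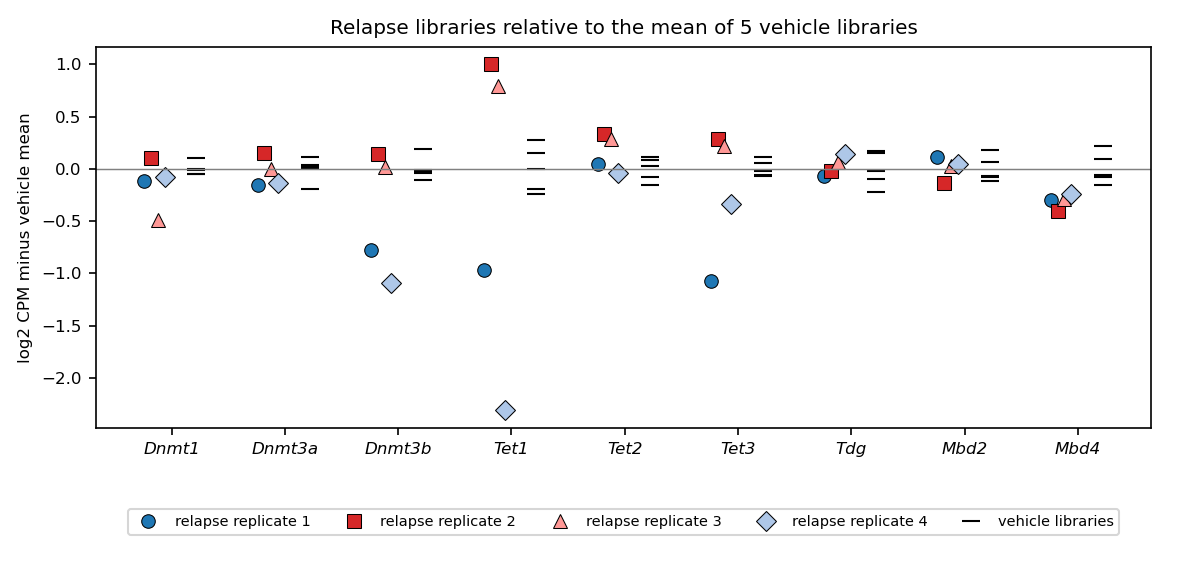
Log2 CPM of the 9 genes in each relapse library (coloured points, replicates 1 to 4) and each vehicle library (dashes), as the difference from the mean of the 5 vehicle libraries (vertical axis). Tet1 runs from −2.31 in replicate 4 to 1.00 in replicate 2, whereas the 4 relapse values of Dnmt3a lie between −0.15 and 0.15.

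The spread within relapse moved with lineage markers. Summed over 6 genes of stem and progenitor cells, relapse replicates 1 to 4 held 460, 1090, 977 and 445 CPM, and over 6 megakaryocyte genes 78, 275, 260 and 96.5 CPM. Both sums were high in the replicates with high Tet1, Tet3 and Dnmt3b. Summed over 8 granulocyte genes the order was turned, at 2250, 871, 492 and 1450 CPM. It was also turned over 6 monocyte genes, at 109, 36.5, 36 and 68.1 CPM. Within the granulocyte list Ngp, Camp and Ltf did not follow the order of the sum. They were highest in replicate 2 (290, 86.4 and 19.1 CPM), whereas the other genes of that list were highest in replicate 1 or 4. In the stem and progenitor list, Sox4 (169 to 625 CPM) and Meis1 (78.5 to 265 CPM) had the widest ranges in relapse. Flt3 did not follow the sum of that list and was highest in replicate 4, at 4.91 CPM. The part of these markers in the spread was not tested.

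Mbd2, the reader of methylated CpG, was the member that rose. It stood at 37.8, 39.3 and 38.3 CPM in AG120 day 5 libraries, against 19.2, 16 and 16.2 CPM in vehicle day 5 libraries. By day 14 it stood at 41.8 and 32.8 CPM in AG120, against 17.9 and 15.6 CPM in vehicle. The groups were far apart, with a level 2.25-fold higher in AG120 at day 5 (log2 fold change 1.17 ± 0.13, adjusted p = 3.89e-06) and 2.22-fold higher at day 14 (1.15 ± 0.17, adjusted p = 6.04e-05). The day 14 effect minus the day 5 effect was −0.02 ± 0.21 (95% interval −0.47 to 0.43, adjusted p = 0.984). In relapse Mbd2 stood at 18.3, 15.3, 17.3 and 17.6 CPM, a narrow band at the level of vehicle. Relapse minus vehicle was 0.02 ± 0.12 (adjusted p = 0.968) and relapse minus AG120 was −1.14 ± 0.11 (adjusted p = 3.96e-07).

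Mbd4 and Tdg, the thymine glycosylases, had low counts and did not move alike. Mbd4 stood at 6.09, 8.57 and 9.1 CPM in AG120 day 5 libraries, against 15.2, 12.5 and 14 CPM in vehicle day 5 libraries, and fell by 0.81 ± 0.17 on the log2 scale (adjusted p = 0.00115). Day 14 values were 9.85 and 9.61 CPM in AG120, against 12.3 and 11.7 CPM in vehicle, and did not pass (−0.31 ± 0.21, adjusted p = 0.287). The difference between the days was 0.50 ± 0.27 (adjusted p = 0.49). In relapse Mbd4 stood at 10.6, 9.8, 10.6 and 11 CPM, below each of the 5 vehicle libraries, as 3.95% of all genes tested lay wholly above or below vehicle. The log2 fold change there was −0.30 ± 0.14 (adjusted p = 0.421), and relapse minus AG120 was 0.26 ± 0.15 (adjusted p = 0.138). The antisense model Gm44206 overlaps exons of Mbd4 and held 236 counts in all, against 1025 for Mbd4. Whether counting used strand is not given in the sources used here, so reads of the pair may be mixed.

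Tdg stood at 10.1, 11.6 and 11.3 CPM in AG120 day 5 libraries, against 9.97, 11.4 and 11.2 CPM in vehicle day 5 libraries (0.01 ± 0.15, 95% interval −0.31 to 0.34, adjusted p = 0.978). At day 14 the level was 10.1 and 12.2 CPM in AG120, against 8.64 and 9.4 CPM in vehicle (0.32 ± 0.20, adjusted p = 0.228). The relapse libraries lay at 9.63 to 11.1 CPM, with a difference of 0.07 ± 0.13 from vehicle (adjusted p = 0.881) and of −0.10 ± 0.13 from AG120 (adjusted p = 0.539). Tdg thus had the narrowest range of the 9 genes, 8.64 to 12.2 CPM over all 14 libraries, from 34 to 103 counts per library. The E-box letters CACGTG, searched on both strands, were in its window before the start, as in 6.02% of all windows and in 1 of the 3 windows of Dnmt3a. Glt8d2, which overlaps its exons on the other strand, held 93 counts in all, against 980 for Tdg.

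None of the 9 genes passed between vehicle day 14 and vehicle day 5, where no gene of the 11994 did (0%). The libraries did not overlap for 4 of 9 members, as for 31.3% of all genes. The largest of these differences was −0.27 ± 0.17 for Tdg (unadjusted p = 0.137, adjusted p = 1 by edgeR), and DESeq2 called no gene either.

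The genes around the writers and erasers were described from 6 lists. Of 13 genes of the S-adenosylmethionine cycle that were tested, which supplies the methyl donor, 7 rose and none fell at day 5 (53.8%, median log2 fold change 0.48), where 39.4% of all genes were called. At day 14, 4 rose and 1 fell (38.5%, median 0.31), a share near the 34.7% of all genes, and in relapse minus AG120 9 fell (69.2%, median −0.50), where 54% of all genes were called. Mthfd1, a folate enzyme of one-carbon metabolism, averaged 90.3 ± 4.88 CPM in AG120 day 5, against 21.8 ± 1.06 CPM in vehicle day 5 (SD, n = 3 each), a rise of 2.05 ± 0.14 (adjusted p = 1.37e-08). Ahcy, which hydrolyses S-adenosylhomocysteine, the product of every methyl transfer, rose by 0.84 ± 0.20 at day 5 (adjusted p = 0.00277). Mtrr, the reductase that keeps methionine synthase active, rose by 0.72 ± 0.19 at day 5 and 0.91 ± 0.23 at day 14, when Ahcyl2 rose by 0.97 ± 0.33. Mthfd1 was the gene of the list with the lowest value in relapse minus AG120 (−2.38 ± 0.12), and averaged 19.3 ± 3.54 CPM in relapse (SD, n = 4). Shmt1, a serine hydroxymethyltransferase, fell by 0.88 ± 0.27 at day 14 (adjusted p = 0.0184).

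Of 14 TET partners and regulators tested, 6 rose and 3 fell at day 5 and 5 rose and 4 fell at day 14 (64.3% at each time, medians 0.03 and −0.20), against 39.4% and 34.7% of all genes. Cxxc5, a CXXC zinc finger protein that binds TET2, averaged 3.66 ± 1.06 CPM in AG120 day 5, against 29.3 ± 0.376 CPM in vehicle day 5 (SD, n = 3 each), and fell by 3.00 ± 0.39 (adjusted p = 5.34e-05). At day 14 it fell by 3.67 ± 0.55 (adjusted p = 0.000221), to 2.54 ± 1.89 CPM in AG120, against 29.7 ± 4.71 CPM in vehicle (SD, n = 2 each). Cul4a, a cullin of the ubiquitin ligase that modifies TET proteins, rose by 1.69 ± 0.15 at day 5 (adjusted p = 1.81e-07) and was 3.03-fold higher at day 14 (adjusted p = 4.32e-06). Idh2, the mitochondrial enzyme that makes 2-oxoglutarate, fell by 0.85 ± 0.15 at day 5 and by 1.69 ± 0.19 at day 14. Idh1, its cytosolic counterpart, fell by 1.95 ± 0.41 at day 14 (adjusted p = 0.00255), to 10.3 ± 1.03 CPM in AG120, against 40.1 ± 5.07 CPM in vehicle (SD, n = 2 each). Vcl, which encodes the cell adhesion protein vinculin, is not an established TET partner but was in the list and is counted in its shares. It rose by 0.73 ± 0.18 at day 5 and 1.26 ± 0.22 at day 14. Oga, which removes the sugar that OGT adds, fell by 0.38 ± 0.14 at day 5. In relapse minus AG120, 5 rose and 6 fell (78.6%, against 54% of all genes), with Cxxc5 at 3.49 ± 0.34, Idh1 at 1.40 ± 0.26 and Cul4a at −1.69 ± 0.13.

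Of 8 tested genes of maintenance and guidance, 1 rose at day 5 (12.5%, median 0.02) and 1 rose and 1 fell at day 14 (25%, median −0.09). The riser was Usp7 at both times, a deubiquitinase that binds DNMT1, at 0.52 ± 0.11 (adjusted p = 0.00136) and 0.98 ± 0.14 (adjusted p = 3.29e-05). The faller at day 14 was Cdca7l, at −0.45 ± 0.16 (adjusted p = 0.0321). Of 16 readers of methylated DNA and NuRD subunits, the repressor complex that MBD2 can join, 3 rose and 1 fell at day 5 (25%, median 0) and 1 fell at day 14 (6.25%, median −0.12), Rbbp4, a histone binding subunit, at −0.45 ± 0.16. The risers were the NuRD genes Mta1 (0.70 ± 0.15), Mta2 (0.46 ± 0.11) and Hdac2 (0.29 ± 0.11). The faller at day 5 was Zbtb4, a zinc finger reader of methylated CpG, at −2.44 ± 0.42 (adjusted p = 0.000235), from 1.13 ± 0.468 CPM in AG120, against 6.14 ± 0.675 CPM in vehicle (SD, n = 3 each). Of 14 base excision repair genes, 3 rose and 1 fell at day 5 and 1 rose and 3 fell at day 14 (28.6% at each time, medians 0.07 and −0.30), against 39.4% and 34.7% of all genes. In relapse minus AG120, where 54% of all genes were called, 4 repair genes rose and 7 fell (78.6%), 2 reader and NuRD genes rose and 4 fell (37.5%), and 1 maintenance gene rose and 1 fell (25%). Parp1, a sensor of strand breaks, was higher at both, at 0.74 ± 0.12 (adjusted p = 0.000101) and 0.44 ± 0.14 (adjusted p = 0.0226). The glycosylase genes Smug1 and Neil1 fell at day 14, by 1.48 ± 0.44 and 1.56 ± 0.56, and Ogg1 fell at day 5, by 0.85 ± 0.31. Gadd45a, a stress gene, and Lig3, a ligase gene, rose at day 5 by 0.95 ± 0.34 and 0.47 ± 0.14, and Gadd45b fell by 2.89 ± 0.99 at day 14. In AG120 day 14 Smug1 lay at 1 to 2.09 CPM, Neil1 at 0.4 to 1.19 CPM and Gadd45b at 0 to 1 CPM. Ogg1 lay at 1.22 to 2.56 CPM in AG120 day 5. The falls of Smug1, Neil1, Gadd45b and Ogg1 thus rest on few counts. Ung, the uracil glycosylase, fell by 0.73 ± 0.12 in relapse minus vehicle (adjusted p = 0.0148), at 54.3 ± 5.33 CPM in relapse (SD, n = 4), against 84.1 ± 16.9 CPM in vehicle day 14 (SD, n = 2) and 96.7 ± 3.29 CPM in vehicle day 5 (SD, n = 3). It was 1 of 22 genes called there, and Mcm6 of the S phase list was another (−0.47 ± 0.09, adjusted p = 0.0435).

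**Figure D4:**
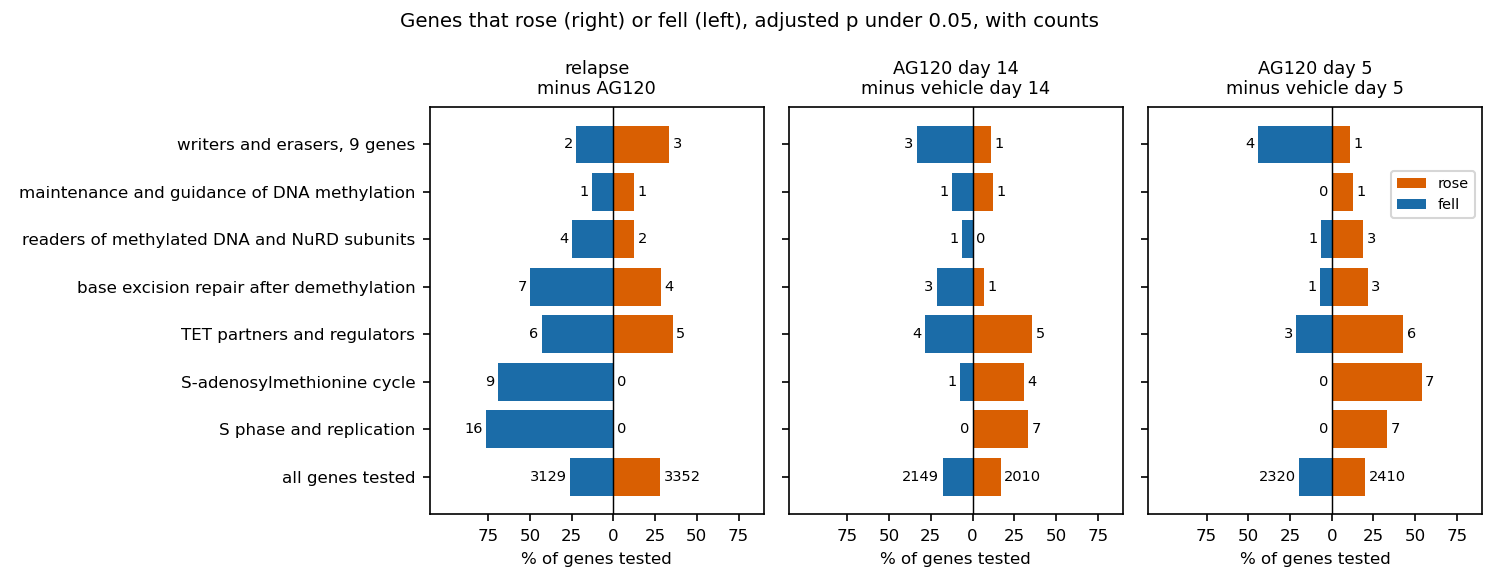
Share of the genes tested (horizontal axis, %) that rose or fell at adjusted p under 0.05 for the 9 writers and erasers, 6 related lists and all genes, with the number of genes beside each bar, in 3 comparisons. The S phase list has 7 risers and no faller at each day of AG120 and 16 fallers in relapse minus AG120.

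Of 21 S phase genes 7 rose and none fell at each of day 5 and day 14 (33.3%, medians 0.24 and 0.44). Over all genes tested 39.4% and 34.7% were called at these days, with 20.1% and 16.8% rising and 19.3% and 17.9% falling. Among the 7 risers was Cdc6, a replication licensing factor, which rose by 0.93 ± 0.18 (adjusted p = 0.000616) and 1.53 ± 0.22 (adjusted p = 6.05e-05). Rrm1, a subunit of ribonucleotide reductase, rose by 0.78 ± 0.14 and 1.17 ± 0.18, and Cdt1, a licensing factor, by 0.78 ± 0.13 and 0.92 ± 0.16. The summed level of the 21 genes was 1640 to 1700 CPM in AG120 day 14, against 1250 CPM in both vehicle day 14 libraries. At day 5 it was 1470 to 1550 CPM with AG120, against 1250 to 1280 CPM with vehicle. In relapse it was 1160, 1060, 888 and 1110 CPM in replicates 1 to 4. Replicate 3 was lowest in this sum and in Dnmt1 (214 CPM). Replicate 2, highest of the relapse libraries in Dnmt1 (321 CPM), was not highest in this sum. Of 13 erythroid markers 12 rose at day 14 and 9 at day 5, with sums of 1580 to 1700 CPM in AG120 day 14, against 134 to 161 CPM in vehicle day 14, and of 625 to 727 CPM in the AG120 libraries of day 5, against 106 to 149 CPM with vehicle. The 6 stem and progenitor genes summed to 33.4 to 36.2 CPM in AG120 day 14, against 622 to 681 CPM in vehicle day 14, and to 90.1 to 116 CPM at day 5, against 624 to 804 CPM with vehicle. Mast cell and basophil markers summed to 31.4 to 36.7 CPM in AG120 day 14, against 200 to 209 CPM in vehicle day 14. Megakaryocyte markers summed to 64.2 to 73.7 CPM with AG120, against 220 to 248 CPM with vehicle, at day 14, and to 32.9 to 54.2 CPM, against 251 to 310 CPM, at day 5. Granulocyte markers summed to 530 to 531 CPM with AG120, against 1090 to 1160 CPM with vehicle, at day 14, and to 303 to 404 CPM, against 754 to 1390 CPM, at day 5. Of these 8 genes 1 fell and none rose at each day (12.5%, against 39.4% and 34.7% of all genes). At day 14 Mpo, Prtn3, Ctsg and Cebpe were lower with AG120 and Elane overlapped. Ngp was higher (242 to 263 CPM, against 108 to 126 CPM), as were Camp (76.4 to 97.7 CPM, against 35.7 to 57.1 CPM) and Ltf (27 to 30.1 CPM, against 9.08 to 13.3 CPM). Monocyte markers summed to 26.9 to 30.4 CPM with AG120, against 36.8 to 43.2 CPM with vehicle, at day 14, and to 13.6 to 15.6 CPM, against 30.3 to 37.4 CPM, at day 5. Of 4 tested, none was called at day 14 (0%, against 34.7% of all genes), and 2 fell at day 5 (50%, against 39.4%). At day 14 Irf8 and Itgam were lower with AG120 and Csf1r overlapped. Ccr2, F13a1 and Ly86 were higher, at 3 CPM or less. The 6 B cell markers summed to 0.298 to 3.02 CPM and the 6 T cell markers to 0.639 to 5.88 CPM over all groups, with Cd79a, Ebf1 and Pax5 at 0 counts in both AG120 groups. In sorted bulk cells, fewer cells of a type and less RNA per cell cannot be told apart, and the part of these lists in the changes of the 9 genes was not tested.

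The genes whose log2 CPM followed each member most closely over the 14 libraries were found by Pearson's r, as a description in which the libraries share the split into AG120 and other groups. Dnmt3a was nearest to Cd93 (r = 0.991), Arhgap30 (0.99) and Il16 (0.989), and Tet2 to Dock8 (0.983), Cdk19 (0.978) and Ccdc125 (0.975). Dnmt3b was nearest to Cpa3 (0.972), a mast cell carboxypeptidase gene, then Akr1c13 and Inpp4b (0.967 each). Mbd2 was nearest to Cul4a (0.984), which also rose in both AG120 comparisons, then Dpy19l1 (0.982) and Dbr1 (0.98). Tet1, with its split in relapse, was nearest to Cyp11a1 (0.95), Mycn (0.929) and Cabyr (0.922), and Tet3 to Polr3gl (0.944), Clstn3 (0.912) and Pigp (0.91). Likeness was weaker for Dnmt1 (Sf1, 0.904), Mbd4 (Trpm2, 0.88) and Tdg (Rnf14, 0.827).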

How the data were processed

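RNA of sorted I1DN progenitors from 14 mice was sequenced with the QuantSeq 3′ kit, per the labels' protocols. The authors deposited raw counts per Ensembl gene. Build mm10, the aligner HISAT2 2.1.0 and the counter featureCounts (Subread 1.6.3) are named in the submitters' processing notes, after bcl2fastq 2.17.1.14 and cutadapt 1.14, beside edgeR 3.28.1, limma 3.42.2 and R 3.6.2. Not given in the sources used here: strand setting, multimapping reads, molecular identifiers. Gene symbols and positions came from GENCODE M21 (GRCm38) by identifier, which named 52403 of 52636; Oga stood there under the older symbol Mgea5.

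Groups were taken from the titles. Counts were filtered with filterByExpr (minimum count 10), scaled by TMM and fitted with edgeR 4.0.16 (robust quasi-likelihood, R 4.3.3, 1 coefficient per group, 9 residual degrees of freedom). Log2 CPM used a prior count of 2. DESeq2 1.42.0, other scalings, no filter, fewer samples and leaving out libraries were alternatives. The fit was tested on simulated data. No pair of replicates matched within sampling noise. Named genes were the 9 members, up to 3 genes per direction, list and comparison of greatest fold change that passed (or 1 of highest level where none did), and the 3 nearest by correlation. Those of comparisons other than AG120 minus vehicle are printed in part. Some listed genes are not reported here. Members and lists were chosen with earlier results of these data known. Apart from coming from separate mice, per the labels, nothing says how replicates relate.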

Additional observations from a re-analysis of the deposited data

How the results depend on the processing

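Dnmt3a and Mbd2 kept their calls at both times under every alternative run, with log2 fold changes of −1.44 to −1.36 (day 5) and −1.66 to −1.41 (day 14) for Dnmt3a and 1.12 to 1.25 and 0.97 to 1.31 for Mbd2. Of 783 values of single members under alternatives, 692 kept direction and side of the threshold, 25 newly passed, 16 no longer passed and 50 changed sign, 0 of them a member called in the report and 2 called in the alternative. Tet1 had as few as 7 counts in a library and Tdg as few as 34, which limits the precision of their values. The causes of the changes below were not tested.

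Members called at day 5 numbered 8, in place of 5, in fits of the groups compared alone and with relapse libraries left out of the fit (chosen after seeing the data). The difference between days called 1 member, in place of 0, with no filter and in the smaller fit. For this difference both ways to a smaller fit give the same fit, since the groups compared are all groups but relapse. Over all genes that difference called 187 by DESeq2 (31.6% higher), 374 with no filter and 869 in the smaller fit (41% higher), in place of 112 (22.3% higher), and 13 to 61 with 1 library left out. Relapse minus vehicle called 120 genes by DESeq2 (65.8% higher), 267 with no filter and 7 in the smaller fit, in place of 22 (54.5% higher), and 8 to 117 with 1 library left out. It called 1760 genes and 1 member without relapse replicates 1 and 4, and 1561 genes and 3 members without 2 and 3. Vehicle day 14 minus day 5 called 33 genes with no filter, 236 in the smaller fit and 117 with relapse left out, in place of 0. Day 14 of AG120 called 2752 to 3003 genes with 1 library left out, in place of 4159.

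Sign changes were these. Tdg at day 5 was −0.01 by DESeq2, median-of-ratios factors, the smaller fit and without relapse, −0.02 with no filter and −0.03 without ribosomal models (−0.04 to 0.08 with 1 library left out). Dnmt1 at day 14 was −0.09 with no filter and −0.02 in the smaller fit and without ribosomal models (−0.05 to 0.06). The Mbd2 difference between days was 0.00 by DESeq2 and 0.01 with median-of-ratios factors (−0.20 to 0.14). In relapse minus vehicle without replicates 1 and 4, Dnmt3a was 0.09, Dnmt3b 0.07, Tet3 0.25 and Mbd2 −0.04. Without 2 and 3, Tet1 was −1.66, and in relapse minus AG120 Tet1 was −0.24 and Tet3 −0.33. With 1 library left out, relapse minus vehicle ran over −0.07 to 0.03 for Dnmt3a, −0.28 to 0.54 for Tet1, −0.28 to 0.07 for Tet3 and −0.03 to 0.09 for Mbd2, and relapse minus AG120 over −0.01 to 0.34 for Tet3. Between the vehicle times Tet3 was 0.00 with no filter and 0.01 without relapse (−0.07 to 0.05), with Tet2 at −0.07 to 0.12, Dnmt3b at −0.09 to 0.22 and Mbd2 at −0.13 to 0.06 with 1 library left out.

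Deviations from the group mean correlated at 0.0171 to 0.107 between same-numbered AG120 and vehicle replicates of a day. In groups of 2 the deviations mirror each other, so that both day 14 pairs gave 0.0685. These few values cannot exclude a pairing, and the labels name none. With the replicate block, 6 members passed at day 5 and 5 at day 14, and 4677 and 4129 genes. The block turned Dnmt3a in relapse minus vehicle to 0.01 and, between vehicle times, Tet2 to −0.01 and Tet3 to 0.02. Tet1 passed under it at both days (−1.14, adjusted p = 0.0325, and −1.76, adjusted p = 0.0283) and in relapse minus AG120 (1.88, adjusted p = 0.00114), where Dnmt1 no longer passed (−0.28, adjusted p = 0.0537).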
